A study of Mus musculus with 8 samples.

Results

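Eicosanoids are lipid mediators made from arachidonic acid. The genes described here encode 8 enzymes or helper proteins of their synthesis and 2 receptors for prostaglandin E2: *Pla2g4a*, *Ptgs1*, *Ptgs2*, *Ptges*, *Alox5*, *Alox5ap*, *Lta4h*, *Ltc4s*, *Ptger2* and *Ptger4*. They were chosen by symbol, and all 10 were found among the 23356 genes of the expression table. Of the 10, 9 reached at least 1 FPKM (fragments normalised to transcript length and mapped fragments) in at least 1 group, as did 11397 genes in all. *Ptges* stayed below 1 FPKM in every group. *Ptgs2* passed this filter only through the treated groups, in which it was high.

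Phospholipase A2 frees arachidonic acid from membranes. Cyclooxygenases turn it into prostaglandin H2, from which terminal synthases make prostaglandin E2 and other prostanoids, whereas 5-lipoxygenase and its helper protein turn it into leukotriene A4, the source of leukotrienes B4 and C4. In dendritic cells (DCs), prostaglandin E2 is known to bear on migration and cytokine output, and leukotrienes on movement of the cells.

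DCs were grown from bone marrow of wild-type (WT) or GEF-H1-/- mice, both of C57BL/6 background in the labels (C57BL/6N in the study's methods), for 6 days with GM-CSF and IL-4, each at 10 ng/ml, and floating and loosely attached cells were taken. GEF-H1, encoded by *Arhgef2*, is a guanine nucleotide exchange factor for RhoA that is held on microtubules. Cells of each genotype were left untreated (control) or received 100 nM ansamitocin-P3, a drug that breaks down microtubules, for 5 h, with 2 RNA sequencing libraries for each of the 4 groups. The knockout was in the whole mouse, the labels give no age or sex, and nothing in them says that the 2 libraries of a group came from separate mice.

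The deposited table gave 1 combined FPKM for each gene and group with a 95% interval from Cuffdiff, so no SD between libraries and no p-value could be obtained. The total of reads behind each column was not known. Columns were matched to groups by name, the WT columns by elimination. *Arhgef2* ran the same way, with 42.3 FPKM in WT controls, 45.9 in drug-treated WT, 4.59 in GEF-H1-/- controls and 4.16 in drug-treated GEF-H1-/- cells. The DC markers *Itgax* (102 to 175 FPKM over the groups), *Cd74* (3073 to 4935) and *Zbtb46* (9.09 to 22.1) were present, but *Flt3* and *Cd209a* were at 0.808 to 3.30 FPKM. Markers of other myeloid cells ranged widely. Among neutrophil markers, *S100a8* was at 10856 to 23110 FPKM, above its own interval in every group, and *Elane* at 20.2 to 45.9. Among eosinophil markers, *Prg2* was at 382 to 984 FPKM and *Ccr3* at 0.575 to 3.21. In bulk samples, fewer cells of a type and less RNA per cell cannot be told apart.

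The promoters of the cyclooxygenase genes *Ptgs2* and *Ptgs1* are shown because these genes had the highest and the lowest change with drug in WT cells among the 10. Each sequence is the RefSeq window on GRCm38.p6 from 250 bases before to 50 bases after the annotated start, printed 5′ to 3′ on the plus strand, at chr1:150099781-150100080 for *Ptgs2* and chr2:36230176-36230475 for *Ptgs1*. Capitals mark letters that match one of the 5 motifs searched on both strands, and the *Ptgs1* window has none.
Ptgs2: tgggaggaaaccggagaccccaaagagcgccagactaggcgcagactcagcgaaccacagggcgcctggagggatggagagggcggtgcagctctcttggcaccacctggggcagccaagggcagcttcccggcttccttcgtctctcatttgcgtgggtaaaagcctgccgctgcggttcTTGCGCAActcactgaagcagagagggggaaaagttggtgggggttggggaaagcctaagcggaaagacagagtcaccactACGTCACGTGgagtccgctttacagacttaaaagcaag
Ptgs1: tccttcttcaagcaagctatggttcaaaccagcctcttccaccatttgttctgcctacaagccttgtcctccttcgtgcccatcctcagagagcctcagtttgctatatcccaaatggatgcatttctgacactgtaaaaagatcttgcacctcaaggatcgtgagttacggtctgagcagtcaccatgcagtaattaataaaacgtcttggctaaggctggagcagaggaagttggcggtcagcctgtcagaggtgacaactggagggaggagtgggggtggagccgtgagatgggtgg
In the *Ptgs2* window, the C/EBP palindrome TTGCGCAA stood at position -69, counted back from the start, and is held by 0.183% of 32851 windows of this length. A CRE half-site (TGACGT, 7.51%) and an E-box (CACGTG, 7.15%) overlapped each other at 13 and 17 after the start. An AP-1 pattern (TGANTCA, 7.81%) or a TATA box (TATAAA, 13.6%) was in neither window. GC content was 59.3% for *Ptgs2* and 50.7% for *Ptgs1*, against a median of 52.7% over all windows. A match is a description of letters and shows no binding. The start of *Ptgs2* in the expression table lay 93 bases downstream of the RefSeq start, beyond the end of the window. The motifs found thus also lie before that other start, but their positions are counted from the RefSeq start. The stretch between the end of the window and that other start was not searched, so the absence of a motif holds for the RefSeq window only. Promoters were matched for 9 of the 10 genes, all but *Alox5ap*. Among the other genes matched, the motifs searched were found in 1 of the 2 windows of *Pla2g4a*, as a TATA box, and in no other window.

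Levels in control WT DCs differed widely between the genes. *Alox5ap*, which presents arachidonic acid to 5-lipoxygenase, was highest at 315 FPKM, and *Ptgs2*, the inducible cyclooxygenase, was lowest at 0.306 FPKM. Between them, in falling order of FPKM, stood *Ptgs1* (130), *Lta4h* (84.2), *Ltc4s* (70.4), *Alox5* (42.2), *Ptger4* (17.0), *Pla2g4a* (8.45), *Ptger2* (2.50) and *Ptges* (0.759). The 95% intervals of neighbours in this order were apart except those of *Ltc4s* and *Alox5*. However, the FPKM of *Ltc4s* lay above its own interval (35.5 to 62.9) and inside that of *Lta4h* (67.9 to 100). The intervals therefore do not settle the order of *Lta4h* and *Ltc4s*. In treated WT cells, *Ltc4s*, *Lta4h* and *Ptgs1* overlapped one another, and *Ptgs2* had moved above *Ptges*.

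**Figure D1:**
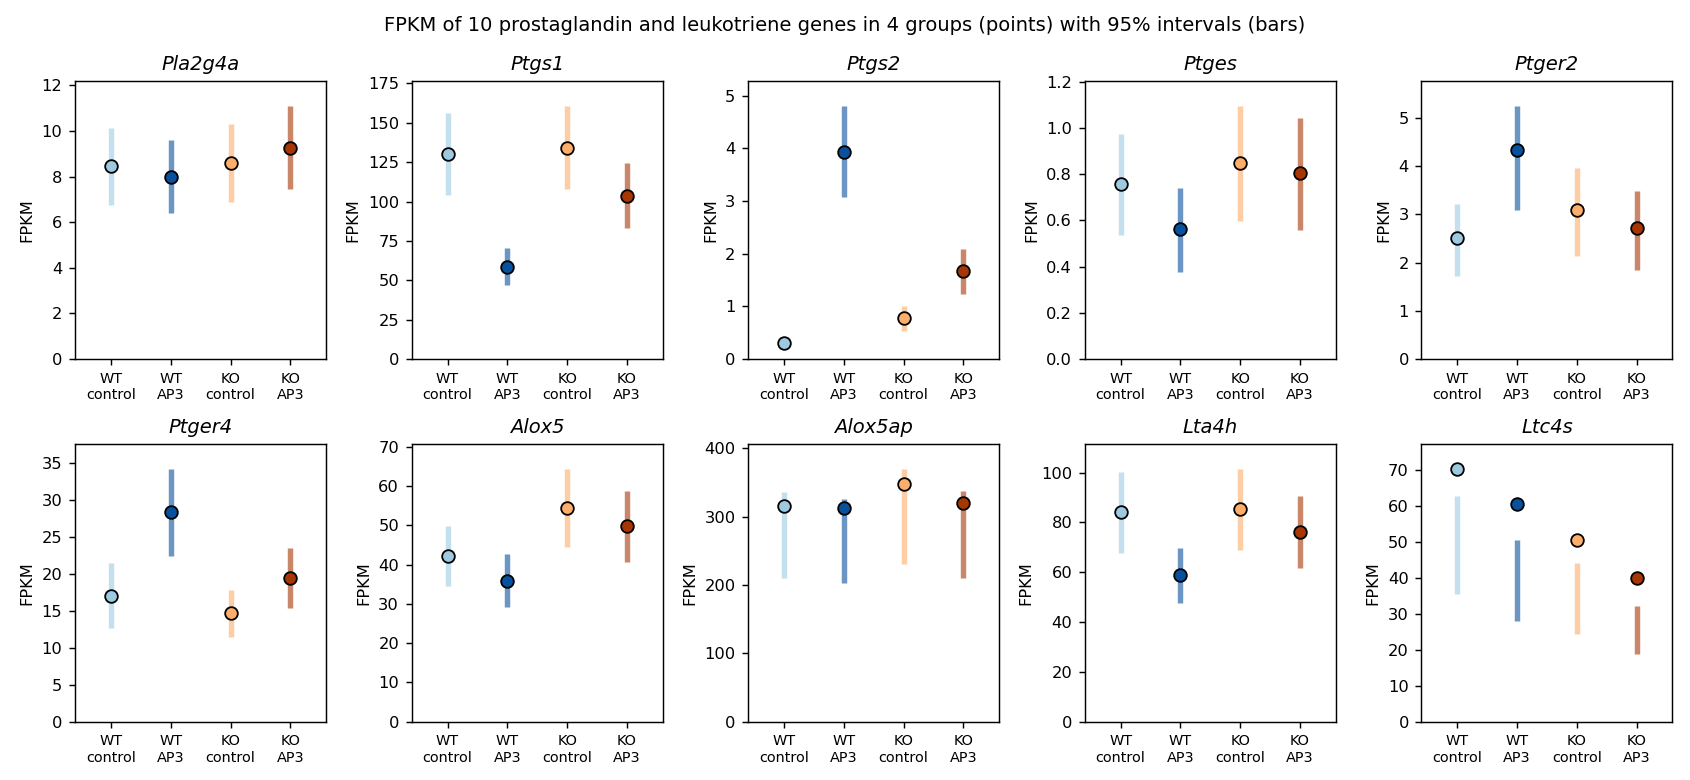
FPKM (vertical axes, each from 0) of the 10 genes in the 4 groups, with points for the group value and bars for the Cuffdiff 95% interval. KO stands for GEF-H1-/- and AP3 for ansamitocin-P3, and the bar of control WT *Ptgs2* is hidden behind its point. *Ptgs1* was lowest and *Ptgs2* highest in treated WT cells, and every *Ltc4s* point lies above its own bar.

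A difference is given as the log2 ratio of FPKM + 1, which understates changes of genes near or below 1 FPKM, and a gene is counted past 2-fold when this value was over 1 or under -1. Plain ratios of FPKM are given as folds. In WT cells, ansamitocin-P3 moved 2 of the 9 genes that passed the filter past 2-fold. *Ptgs2* rose, as did 3.66% of all genes tested, and *Ptgs1* fell, as did 1.28% of them. The filter let *Ptgs2* in only through the treated groups, so its place among the 9 is not independent of its rise. By the rule that the 95% intervals be apart, *Ptgs2* and *Ptger4* were higher (9.19% of all genes) and *Ptgs1* was lower (7.58%). The median log2 change of the 9 was -0.07, beside 0.00 over all genes. In GEF-H1-/- cells, none of the 9 passed 2-fold, as 1.08% of all genes did, and *Ptgs2* alone had intervals apart, being higher (2.75% of all genes, with 0.956% lower). The median was -0.13 beside -0.01.

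*Pla2g4a* encodes cytosolic phospholipase A2, which releases arachidonic acid (chromosome 1, 149829622 to 149961284, GRCm38). It was at 8.45 FPKM in WT controls (95% interval 6.74 to 10.1), 8.003 in drug-treated WT (6.41 to 9.59), 8.59 in GEF-H1-/- controls (6.88 to 10.3) and 9.27 in drug-treated GEF-H1-/- cells (7.46 to 11.1). All 4 intervals overlapped, and the log2 change with drug was -0.07 with GEF-H1 and 0.10 without it.

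*Ptgs2* encodes cyclooxygenase-2 and lies on the same chromosome (150100124 to 150108012), with its start 138840 bases beyond the end of *Pla2g4a*. It was at 0.306 FPKM in WT controls (0.182 to 0.428), 3.93 in drug-treated WT (3.07 to 4.80), 0.776 in GEF-H1-/- controls (0.534 to 1.02) and 1.66 in drug-treated GEF-H1-/- cells (1.23 to 2.09). The 4 intervals were apart from one another. Treated WT cells were highest and control WT cells lowest, with both GEF-H1-/- groups between them. The ratio of treated to control was 12.8-fold in WT cells, or 7.18 to 26.4-fold from the interval bounds, and 2.14-fold in GEF-H1-/- cells, or 1.21 to 3.92-fold. On the log2 scale the changes were 1.92 and 0.58, and the change in WT cells ranked 89 from the highest of 11397 genes. *Ptgs2* was among these genes only through the treated groups, in which it was high. Its ranks and counts in this paragraph therefore describe its values and are not a test of them. With a pseudocount of 5 the change in WT cells was 0.75, short of 2-fold, and with one of 0.1 it was 3.31 and the change in GEF-H1-/- cells also passed 2-fold. The difference between the 2 changes was 1.33, which ranked 80 from the highest. *Ptgs2* was the 1 gene of the 9 whose difference in drug change passed 2-fold, and 1.36% of all genes did so in this direction. With a pseudocount of 5, the difference was 0.55 and this count was 0, with a filter of 5 FPKM *Ptgs2* was not tested, and with a pseudocount of 0.1 the difference was 2.30. The intervals of the genotypes were apart at both treatments. The log2 differences of GEF-H1-/- minus WT cells, 0.44 without and -0.89 with drug, were short of 2-fold, and both control values were below 1 FPKM. Control GEF-H1-/- cells were 2.53-fold above control WT cells (1.25 to 5.59-fold from the bounds) and treated GEF-H1-/- cells were 2.37-fold below treated WT cells. The only listed gene between *Pla2g4a* and *Ptgs2*, 7530420F21Rik, was at 0 FPKM in all 4 groups.

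*Ptgs1* encodes cyclooxygenase-1, the constitutive form of the enzyme (chromosome 2, 36230426 to 36252269). It was at 130 FPKM in WT controls (104 to 156), 58.7 in drug-treated WT (46.8 to 70.5), 134 in GEF-H1-/- controls (108 to 160) and 104 in drug-treated GEF-H1-/- cells (83.1 to 124). Treated WT cells lay apart from the other 3 groups, whose intervals overlapped one another. Its FPKM in WT cells fell 2.22-fold, a log2 change of -1.14 that ranked 103 from the lowest of all genes tested, and in GEF-H1-/- cells the log2 change was -0.37 with overlapping intervals. The changes differed by -0.77, short of 2-fold. After drug, GEF-H1-/- cells were 1.77-fold above WT cells with intervals apart, whereas the control groups differed by 0.04 on the log2 scale.

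The summed FPKM of both cyclooxygenase genes was 130.48 in WT controls, 62.6 in drug-treated WT, 135 in GEF-H1-/- controls and 105 in drug-treated GEF-H1-/- cells. *Ptgs2* made up 0.235%, 6.28%, 0.575% and 1.58% of these sums in the same order. *Ptgs1* was the more abundant transcript in every group, by 425-fold in control WT and 14.9-fold in treated WT cells.

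*Ptges* encodes the inducible microsomal prostaglandin E synthase, the enzyme after the cyclooxygenases on the way to prostaglandin E2 (chromosome 2, 30889471 to 30903297). It was at 0.759 FPKM in WT controls (0.534 to 0.972), 0.562 in drug-treated WT (0.377 to 0.741), 0.849 in GEF-H1-/- controls (0.595 to 1.09) and 0.807 in drug-treated GEF-H1-/- cells (0.559 to 1.04). All 4 intervals overlapped at this low level, with a log2 change of -0.17 in WT cells. A pseudogene, Gm13400, overlaps its longer span in GENCODE M21 (30889471 to 30929863) on the same strand. Overlap with the locus above was not tested.

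**Figure D2:**
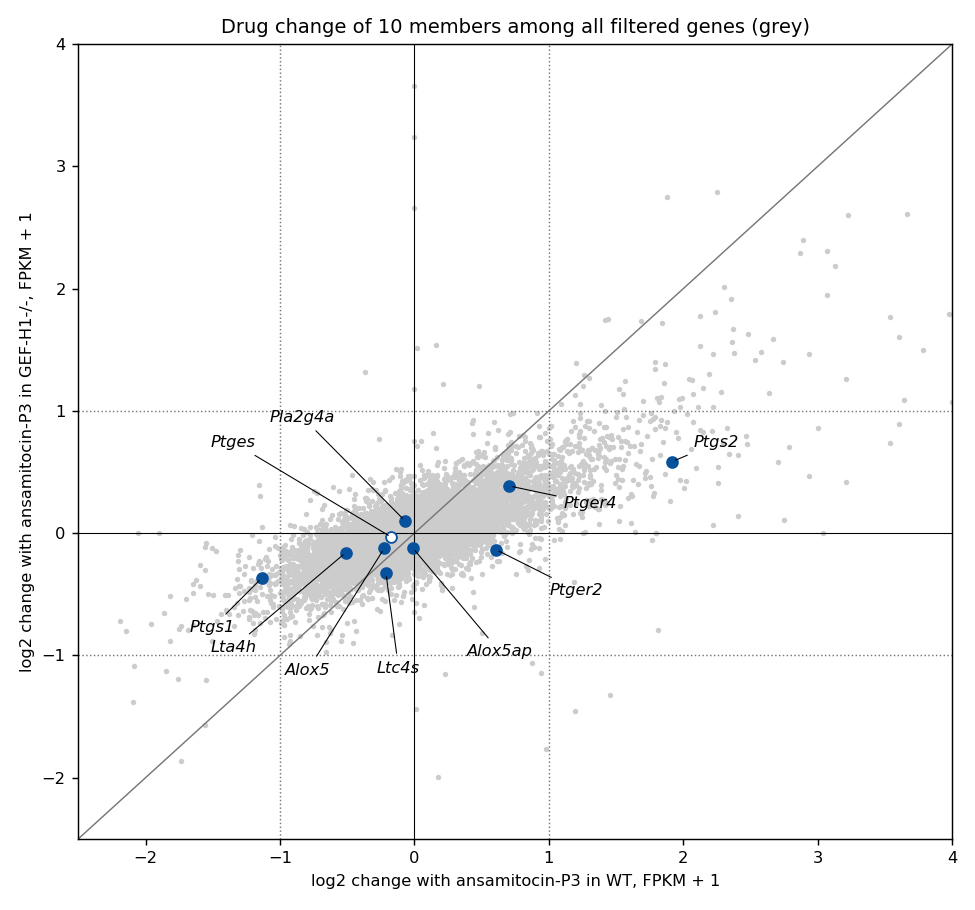
Log2 change with ansamitocin-P3 (FPKM + 1) in WT (horizontal) and GEF-H1-/- cells (vertical) for the 10 genes (blue, *Ptges* below the filter as an open circle) among all genes tested (grey). Dotted lines mark 2-fold, the diagonal marks equal change, and 46 genes lie outside the axes. *Ptgs2* lies past the right line and *Ptgs1* past the left one, and no blue point passes a horizontal line.

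The 2 receptors both signal through cyclic AMP when they bind prostaglandin E2. *Ptger4* (EP4, chromosome 15, 5233404 to 5243831) was at 17.0 FPKM in WT controls (12.7 to 21.5), 28.3 in drug-treated WT (22.4 to 34.2), 14.6 in GEF-H1-/- controls (11.5 to 17.8) and 19.4 in drug-treated GEF-H1-/- cells (15.3 to 23.5). In WT cells it was 1.67-fold higher after drug with intervals apart, under the 2-fold limit. In GEF-H1-/- cells the ratio was 1.33-fold with overlapping intervals, and the log2 changes differed by 0.32. *Ptger2* (EP2, chromosome 14, 44988111 to 45003820) was lower, at 2.50 FPKM in WT controls (1.72 to 3.22), 4.33 in drug-treated WT (3.09 to 5.24), 3.09 in GEF-H1-/- controls (2.14 to 3.97) and 2.72 in drug-treated GEF-H1-/- cells (1.86 to 3.48). Treated WT cells were highest, but all 4 intervals overlapped. With drug, *Ptger2* had a log2 change of 0.60 in WT cells and of -0.13 without GEF-H1.

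None of the 4 leukotriene genes passed 2-fold or had its intervals apart in any of the 4 comparisons. *Alox5* encodes 5-lipoxygenase, the first enzyme of the branch (chromosome 6, 116410071 to 116461178). It was at 42.2 FPKM in WT controls (34.5 to 49.9), 35.9 in drug-treated WT (29.2 to 42.6), 54.4 in GEF-H1-/- controls (44.5 to 64.4) and 49.8 in drug-treated GEF-H1-/- cells (40.7 to 58.9). The GEF-H1-/- groups had the higher values, with intervals that overlapped those of WT cells at the same treatment. Its partner *Alox5ap* (chromosome 5, 149265058 to 149288047) was at 315 FPKM in WT controls (210 to 336), 312 in drug-treated WT (203 to 326), 348 in GEF-H1-/- controls (231 to 369) and 319 in drug-treated GEF-H1-/- cells (210 to 337). All 4 intervals overlapped, and each FPKM lay near the upper bound of its interval.

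*Lta4h* encodes leukotriene A4 hydrolase, which makes leukotriene B4 (chromosome 10, 93453396 to 93484896). It was at 84.2 FPKM in WT controls (67.9 to 100), 58.8 in drug-treated WT (47.7 to 69.8), 85.2 in GEF-H1-/- controls (68.9 to 101) and 76.2 in drug-treated GEF-H1-/- cells (61.7 to 90.7). Treated WT cells were lowest, at a log2 change of -0.51 against -0.16 in GEF-H1-/- cells, but the intervals of control and treated WT cells overlapped. *Ltc4s* encodes leukotriene C4 synthase, which starts the cysteinyl leukotrienes (chromosome 11, 50236472 to 50238471). It was at 70.4 FPKM in WT controls (35.5 to 62.9), 60.6 in drug-treated WT (28.2 to 50.6), 50.5 in GEF-H1-/- controls (24.6 to 44.3) and 40.0 in drug-treated GEF-H1-/- cells (18.8 to 32.2). Each of these FPKM lies above its own interval, so the error of this gene is not well described. The values were lower in GEF-H1-/- than in WT cells by 0.47 on the log2 scale without drug and 0.59 with it, and the intervals overlapped at each treatment.

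Between the control groups, none of the 9 genes passed 2-fold, as 1.88% of all genes did (1.26% higher, 0.614% lower in GEF-H1-/- cells), and *Ptgs2* alone had intervals apart, being higher in GEF-H1-/- cells (2.86% of all genes). Between the treated groups, none passed 2-fold (4.06% of all genes, 2.0% higher and 2.06% lower), and intervals were apart for *Ptgs1*, higher in GEF-H1-/- cells (7.02% of all genes), and *Ptgs2*, lower in them (6.73%). The median log2 difference of the 9 was 0.04 in both comparisons, beside -0.01 and -0.03 over all genes. These comparisons share groups with the drug comparisons, so they are not separate evidence.

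Markers of other cells differed between the control groups. All 7 markers of mast cells or basophils had higher values in the GEF-H1-/- controls, with a summed FPKM of 350 beside 192, though *Mcpt4* was near 0 in both. Intervals were apart for *Cpa3*, *Ms4a2*, *Gata2* and *Prss34* and overlapped for *Mcpt8*, *Kit* and *Mcpt4*. The sum of the 4 eosinophil markers in the table was 475 beside 1119, with *Prg2* and *Epx* lower and *Siglec5* and *Ccr3* higher. The sum of the 5 neutrophil markers was 20984 beside 30316 (3 lower, 2 higher), and that of the 6 macrophage markers was 236 beside 160 (5 higher, 1 lower). *S100a8* and *S100a9* held most of the neutrophil sums. *S100a8* was at 10856 FPKM beside 19401, above its own interval in both, and *S100a9* had overlapping intervals. With intervals apart, *Camp* was lower and *Mpo* higher, whereas those of *Elane* overlapped. The 7 DC markers summed to 4486 beside 5353 (3 higher, 4 lower). T and B cell markers were at or below 4.34 FPKM each in all groups. Mast cells, basophils and eosinophils are known for *Ltc4s* and *Alox5*, and the part of these markers in the genotype differences of the 10 genes was not tested. With drug in WT cells, mast cell or basophil markers summed to 198 beside 192, eosinophil markers to 928 beside 1119 and macrophage markers to 105 beside 160. Neutrophil markers summed to 35748 beside 30316 and DC markers to 6701 beside 5353. Except among eosinophil markers, members of these lists did not all move with their sum. *Cd74* held most of the DC sum, at 3676 FPKM without and 4935 with drug, with overlapping intervals. *Itgax*, *H2-Aa* and *Zbtb46* also had higher values. *Flt3* (2.10 to 1.07 FPKM) and *Cd209a* (1.81 to 0.808) fell with intervals apart, and *H2-Ab1* was slightly lower. *S100a8*, *S100a9* and *Camp* were higher, *Mpo* and *Elane* lower. The part of these markers in the drug changes was not tested.

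**Figure D3:**
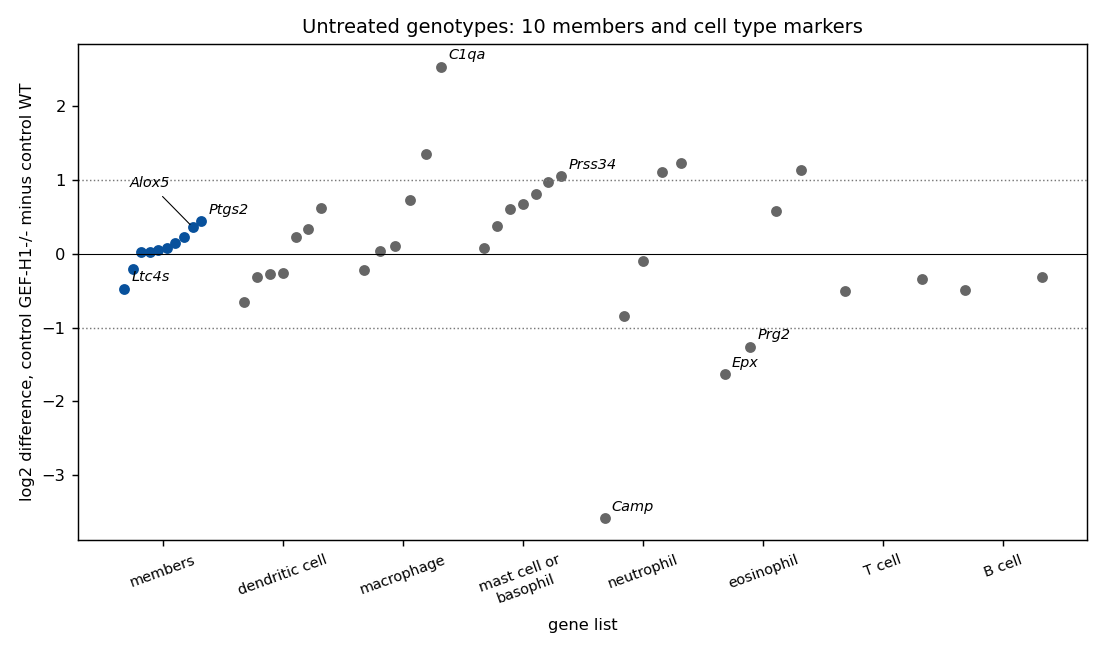
Log2 difference (FPKM + 1) of control GEF-H1-/- minus control WT cells for the 10 genes (blue) and the markers of 7 cell types (grey), 1 point per gene, with dotted lines at 2-fold. The 10 genes lie between -0.47 for *Ltc4s* and 0.44 for *Ptgs2*, while markers reach -3.57 for *Camp* and 2.53 for *C1qa*.

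A list of 56 other symbols of eicosanoid release, synthesis, turnover and receptors had 55 in the table, of which 35 passed the filter. In WT cells, ansamitocin-P3 moved 1 of the 35 past 2-fold upward (3.66% of all genes) and 0 downward (1.28%). The intervals were apart for 1 higher (9.19% of all genes) and 6 lower (7.58%). In GEF-H1-/- cells 0 passed 2-fold (1.08% of all genes) and 0 had intervals apart (2.75% higher and 0.956% lower). Their median log2 change was -0.03 with GEF-H1 and -0.01 without it, beside 0.00 and -0.01 over all genes.

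The gene past 2-fold was *Ltb4r1*, the high-affinity receptor for leukotriene B4. It was at 62.1 FPKM in WT controls (40.7 to 65.8), 142 in drug-treated WT (90.0 to 144), 57.7 in GEF-H1-/- controls (37.6 to 60.9) and 76.5 in drug-treated GEF-H1-/- cells (49.3 to 79.6). It rose by 1.18 on the log2 scale in WT cells, and its log2 change in GEF-H1-/- cells was 0.40 with overlapping intervals. The 6 lower genes, named after their values were seen, were *Pla2g4f* and *Pla2g15*, phospholipases A2, *Daglb*, a diacylglycerol lipase, *Ptgr2*, which reduces prostaglandins, *Abcc4*, which exports them, and the lipoxygenase gene *Alox12e*. *Daglb* showed the lowest log2 change of these, -0.80 in WT against -0.21 in GEF-H1-/- cells, with 25.3 FPKM in control and 14.1 in treated WT cells. *Pla2g15*, at -0.61 and -0.51, had changes of like size in both genotypes. *Pla2g4f* (1.11 FPKM in control and 0.527 in treated WT cells) and *Alox12e* (1.66 and 0.617) lay near the filter limit. *Pla2g4f* passed the filter only through control WT cells, in which it was high, so its place among the lower genes is not independent of its fall.

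The gene with the highest FPKM in any group was taken from each list. *Anxa1*, an inhibitor of phospholipase A2 action, was at 390 FPKM in control WT cells, the cytosolic prostaglandin E synthase *Ptges3* at 107, *Ptgr2* at 14.4 and the prostaglandin E2 receptor *Ptger1* at 28.0. *Cyp4f18*, which inactivates leukotriene B4, was at 37.8 FPKM in the same cells and 51.6 in GEF-H1-/- controls, and *Ltb4r1*, given above, led the leukotriene receptors. The log2 change with drug in WT cells was 0.06 for *Anxa1*, 0.25 for *Ptges3*, 0.40 for *Cyp4f18* and 0.09 for *Ptger1*. *Ptges3*, a general co-chaperone as well, was thus far above *Ptges* in FPKM.

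Between the control groups, 1 of the 35 was lower past 2-fold in GEF-H1-/- cells (0.614% of all genes) and 0 were higher (1.26%). Intervals were apart for 5 higher (2.86% of all genes) and 3 lower (1.88%). The lower gene was *Fpr2*, a formyl peptide receptor that also binds the lipoxygenase product lipoxin A4, with 91.1 FPKM in control WT (60.2 to 97.1) and 43.0 in control GEF-H1-/- cells (28.4 to 49.3), a log2 difference of -1.07. Between the treated groups 1 of the 35 was higher past 2-fold (2.0% of all genes) and 0 were lower (2.06%), and intervals were apart for 7 higher (7.02%) and 3 lower (6.73%). The gene past 2-fold, named after its values were seen, was *Alox15*, the 12/15-lipoxygenase, with 18.7 FPKM in treated WT (15.0 to 22.5) and 45.0 in treated GEF-H1-/- cells (36.2 to 53.7). Its intervals were already apart between the control groups, at 25.6 FPKM in WT (20.5 to 30.6) and 42.6 in GEF-H1-/- cells (34.4 to 50.8). Some genes with intervals apart passed the filter only through a group in which they were high. *Ptgis*, higher in GEF-H1-/- cells at both treatments, did so through their controls (1.09 FPKM). *Hpgds*, lower at both, did so through treated WT cells (1.07), and *Pla2g4f*, lower without drug, through control WT cells (1.11). These counts therefore depend partly on the filter and are not support for a difference.

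**Figure D4:**
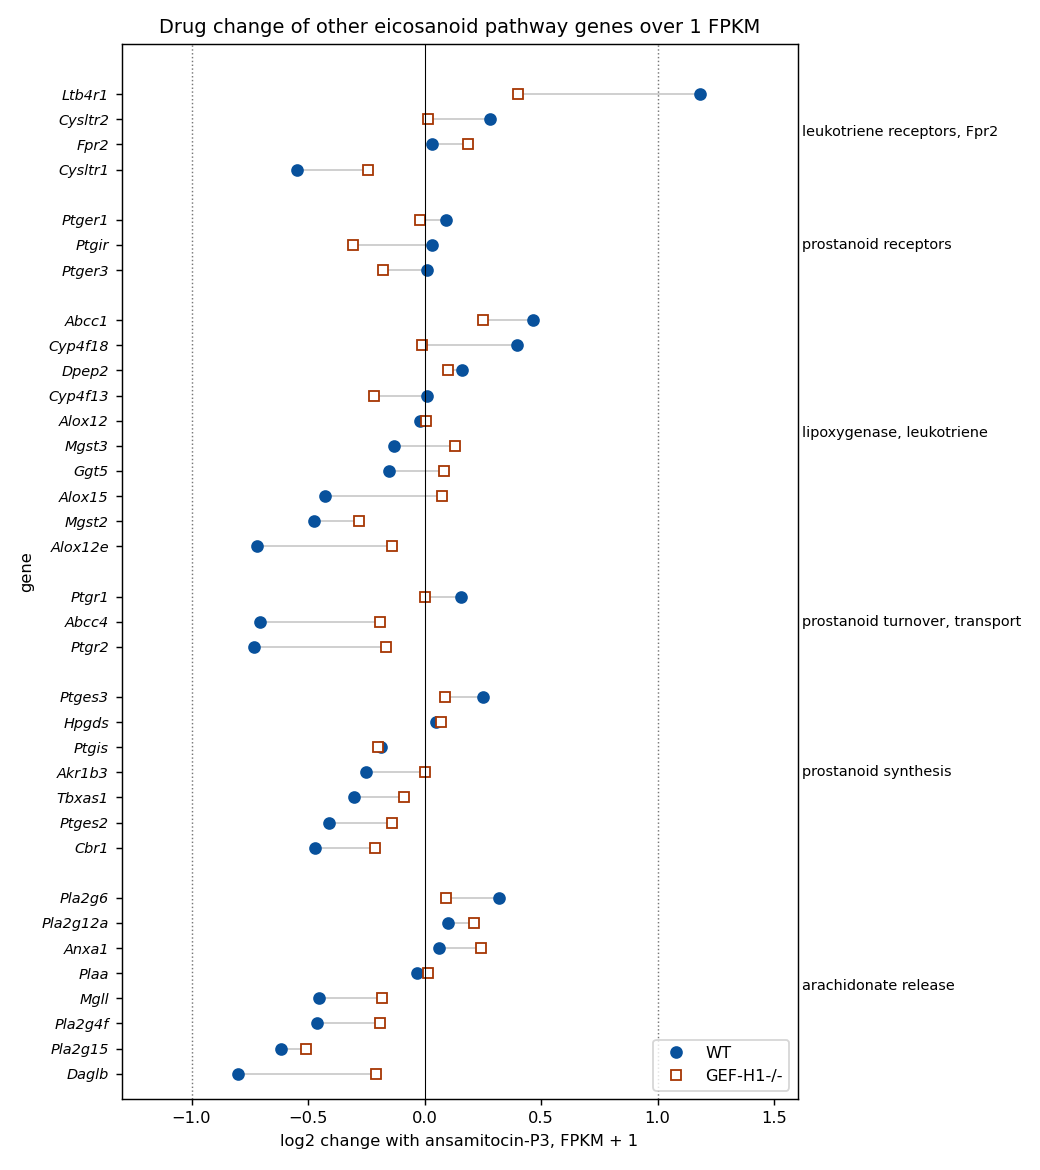
Log2 change with ansamitocin-P3 (FPKM + 1, horizontal) of the 35 other pathway genes that passed the filter, by list, in WT (filled circles) and GEF-H1-/- cells (open squares), with dotted lines at 2-fold. *Ltb4r1* is the only gene past a dotted line.

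The genes nearest to *Ptgs2* in pattern were found by distance over 3 log2 values, the change in WT cells, the change in GEF-H1-/- cells and the difference of the control groups, among 8817 genes with at least 5 FPKM in a group. The 5 nearest were *Srxn1* (distance 0.12), *Il1f9* (0.20), *Vegfa* (0.26), *Timp3* (0.27) and *Cebpb* (0.27). *Srxn1* was at 28.1 FPKM in WT controls, 102 in drug-treated WT, 37.2 in GEF-H1-/- controls and 58.4 in drug-treated GEF-H1-/- cells. The 5 nearest to *Ptgs1* among 8816 genes were *Shmt1* (0.06), *Fam65b* (0.09), *Slc45a4* (0.10), *Arhgap39* (0.10) and *Pycard* (0.11). *Pycard* was at 100 FPKM in WT controls, 46.8 in drug-treated WT, 111 in GEF-H1-/- controls and 86.2 in drug-treated GEF-H1-/- cells. These lists depend on the pseudocount of 1. By plain ratio in WT cells *Srxn1* was 3.64-fold and *Ptgs2* 12.8-fold higher with drug, and with a pseudocount of 0.1, an alternative chosen after seeing the data, 0 of the 5 genes nearest to *Ptgs2* and 1 of the 5 nearest to *Ptgs1* (*Pycard*) were kept.

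Several of the genes share their annotated position with another gene. In GENCODE M21, *Alox5ap*, *Ltc4s*, *Ptger2*, *Ptgs1*, *Pla2g4a* and *Ptger4* are overlapped on the opposite strand, *Ptger4* by the protein-coding gene *Ttc33*. This holds for the GENCODE span of each gene, which for *Ptger4* (5206661 to 5244187) is longer than the locus given above. Overlap with the loci as counted was not tested. The libraries marked the strand, but whether Cuffdiff used it is not given in the sources used here. Where a counted locus is overlapped, reads of an antisense partner cannot be told apart.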

How the data were processed

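RNA of 8 libraries was sequenced, 2 per group, from stranded polyadenylated RNA. The authors computed FPKM with Cuffdiff 1.05 on mm10. The deposited FPKM are 1 combined value per gene and group with 95% interval bounds, and the aligner and annotation are not given in the sources used here. The depth reached in each column is unknown, and the intervals are the only error. Of 23356 genes, 107 without an OK status were left out, and 11397 with at least 1 FPKM in a group were kept. Log2 ratios of FPKM + 1 were computed (Python 3.11.15, pandas 2.3.3), with a call past 2-fold or with 95% intervals apart. Only the 2-fold call was checked on simulated data, with changes placed in genes averaging at least 5 FPKM. That check covers neither the interval rule nor changes in genes as low as *Ptgs2*. The limma branch of the design needs separate libraries and was not run. The 10 genes and all lists were chosen with earlier results of these data known. Other pathway genes were named if past 2-fold in a drug comparison or between control groups, or highest in their list in any group. Genes outside this rule (*Alox15*, *Ptgis*, *Hpgds* and those with intervals apart in WT cells) were named after their values were seen, and the 5 nearest patterns had at least 5 FPKM. A degenerate NF-kB pattern is not reported here. Starts, counted from 0 in the table, were raised by 1. There were 0 unused columns of per-sample values.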

Additional observations from a re-analysis of the deposited data

How the results depend on the processing

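No paired analysis was possible because each group's 2 libraries are combined in 1 value, and for the same reason no library could be left out. With a pseudocount of 0.1, *Ptgs2* passed 2-fold also in GEF-H1-/- cells (1 gene), between the control groups (1) and between the treated groups (1), beside 0 in each with a pseudocount of 1. Of all genes, 1.86%, 3.26% and 7.03% then passed. With a pseudocount of 5, only 1 of the 10 genes, *Ptgs1*, passed in WT cells (2.79% of all genes). In drug change, 0 then differed between genotypes (1.08%). A filter of 5 FPKM removed *Ptgs2*, leaving 1 and 0 (5.7% and 2.13% of all genes that passed this filter). At 1.5-fold, 4 genes passed in WT cells (*Ptgs1*, *Ptgs2*, *Ptger2*, *Ptger4*), 3 between the treated groups (*Ptgs1*, *Ptgs2*, *Ltc4s*) and 3 in drug change (*Ptgs1*, *Ptgs2*, *Ptger2*). Of all genes, 17.7%, 14.8% and 8.2% passed 1.5-fold in these. The other pathway genes tested numbered 35. With a pseudocount of 0.1 and at 1.5-fold respectively, 2 and 6 of them passed in WT cells (8.39% and 17.7% of all genes). Between the control groups 6 and 8 passed (3.26% and 5.26%), and between the treated groups 5 and 9 (7.03% and 14.8%). In both, the count at 0.1 includes *Hpgds* and *Ptgis*, which passed the filter only through a group in which they were high. In drug change 1 and 2 passed (3.4% and 8.2%). Of 150 recomputed values of single genes, 4 moved, all of *Ptgs2*. In WT cells its value was 3.31 at a pseudocount of 0.1 and 0.75 at 5. At 0.1 it was 1.11 between the control groups and 2.30 in drug change. The sign changed in 0 of 50 comparisons of single genes, but this is a weak check of direction. A pseudocount cannot change the sign of a ratio between groups, though it can for the difference in drug change. Rescaling the groups to their median ratio could also change a sign, but its factors were only 0.999 to 1.01. The call of *Ptgs2* therefore depends on the pseudocount, as its FPKM are low.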
